A study of Homo sapiens with 18 samples.

Results

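The 9p21 region of human chromosome 9 carries CDKN2A, CDKN2B and MTAP beside the type I interferon gene cluster. It was described here through 37 windows out of 89428 in an ATAC-seq table of 6 established ovarian cancer cell lines. The 37 windows are those on chromosome 9 (build GRCh37, also called hg19) that start between 20000000 and 23500000. They were assigned to 8 genes, CDKN2A, CDKN2B, MTAP, DMRTA1, KLHL9, HACD4, IFNE and IFNB1, by the gene spans of GENCODE release 44. The members were chosen by their measured values, the near absence of reads in the lines PEO1 and PEO4, so that absence is given as a description and carries no test.

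ATAC-seq reads mark DNA that the Tn5 transposase can reach, and the deposited table gives reads per 1001 bp window as FPKM, that is, reads scaled to the length of the window and to the depth of the library. Each line had 3 replicate libraries, 18 in all, and the lines form 3 pairs labelled sensitive and resistant to platinum. CP70 is the resistant partner of A2780, PEA2 that of PEA1 and PEO4 that of PEO1. CP70 was derived from A2780 in culture, whereas the other pairs were each established from 1 patient before and after resistance. No treatment is given for any library, all lines were grown in the same medium, and each line stands for a single culture model. The labels call A2780 and CP70 endometrial/ovarian and the other lines ovarian.

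9p21 holds a dense set of growth-restraining genes. CDKN2A encodes 2 unrelated proteins from separate starts: p16INK4A, which inhibits the kinases CDK4 and CDK6 and so keeps RB1 active, and p14ARF, which restrains MDM2 and so stabilises p53. CDKN2B encodes p15INK4B, a second inhibitor of the same kinases, and MTAP encodes the enzyme that returns methylthioadenosine to the methionine salvage pathway. The interferon cluster lies on the telomeric side, and joint loss of these genes is a known event in many cancers.

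Whole reads were recovered from the deposited values in all 18 libraries. Library totals ran from 8963079 reads (PEO1) to 60435027 reads (A2780), and the share of reads inside the table's windows from 8.38% (A2780) to 40.8% (PEO1). Every window of the table was above 2 FPKM in at least 2 libraries. All 8 epithelial marker starts, such as PAX8 and EPCAM, had a listed window. Of these 8, SOX17 was lowest in the PEO lines (0.721 FPKM in PEO1, 0.661 in PEO4) and highest in PEA2 (2.33 FPKM), and the other 7 were lowest in A2780 and highest in PEO1 or PEO4. Of 8 starts of leukocyte, endothelial and fibroblast markers, CD14 and COL1A2 had a listed window.

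The sequences just upstream of the starts show which DNA the windows of the main genes cover. The 250 bases before the start, in GRCh37 and read 5′ to 3′ on the gene's own strand, are given for MTAP (chr9:21802385-21802634, + strand), the p16INK4A start of CDKN2A (chr9:21974857-21975106, - strand), the p14ARF start of CDKN2A (chr9:21994392-21994641, - strand) and CDKN2B (chr9:22009305-22009554, - strand). IFNB1 (chr9:21077942-21078191, - strand) is shown beside them as a gene of the cluster with no listed window. Capitals mark matches, on either strand, to the letters GGGCGG of the GC box, to CCAAT of the CAAT box and to TATAAA of the TATA box.
MTAP: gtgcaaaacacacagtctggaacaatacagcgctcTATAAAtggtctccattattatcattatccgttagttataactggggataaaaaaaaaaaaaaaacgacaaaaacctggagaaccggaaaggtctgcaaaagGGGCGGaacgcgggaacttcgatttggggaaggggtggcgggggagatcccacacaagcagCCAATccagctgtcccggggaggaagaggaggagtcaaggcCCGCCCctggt
CDKN2A, p16INK4A start: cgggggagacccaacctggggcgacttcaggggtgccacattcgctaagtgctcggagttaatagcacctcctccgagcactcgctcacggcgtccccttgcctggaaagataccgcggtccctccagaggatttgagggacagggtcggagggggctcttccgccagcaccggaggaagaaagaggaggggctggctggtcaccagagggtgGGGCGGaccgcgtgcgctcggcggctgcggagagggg
CDKN2A, p14ARF start: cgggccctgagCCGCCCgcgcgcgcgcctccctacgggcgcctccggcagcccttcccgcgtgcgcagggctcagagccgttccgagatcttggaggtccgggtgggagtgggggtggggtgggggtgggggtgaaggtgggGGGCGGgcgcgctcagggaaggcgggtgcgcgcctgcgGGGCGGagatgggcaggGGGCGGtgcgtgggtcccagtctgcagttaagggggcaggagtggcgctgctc
CDKN2B: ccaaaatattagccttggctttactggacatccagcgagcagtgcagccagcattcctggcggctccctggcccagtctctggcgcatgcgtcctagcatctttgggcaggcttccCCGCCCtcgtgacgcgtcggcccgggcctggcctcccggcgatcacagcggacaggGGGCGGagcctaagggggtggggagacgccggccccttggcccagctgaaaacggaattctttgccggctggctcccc
IFNB1: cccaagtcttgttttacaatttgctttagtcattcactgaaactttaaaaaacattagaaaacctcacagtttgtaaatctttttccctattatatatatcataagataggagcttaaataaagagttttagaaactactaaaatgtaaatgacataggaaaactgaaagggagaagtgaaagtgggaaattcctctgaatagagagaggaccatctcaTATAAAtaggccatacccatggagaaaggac
The 4 upstream stretches with listed windows held GGGCGG 2 times at MTAP, 1 time at the p16INK4A start, 4 times at the p14ARF start and 2 times at CDKN2B. MTAP also held CCAAT and TATAAA once each. IFNB1 held TATAAA once and neither of the others. Over the 250 bases upstream of 19503 protein-coding genes, 59.5% held GGGCGG, 34.3% held CCAAT and 9.23% held TATAAA. Such matches describe letters and not bound factors. The GC share was 76.4% at the p14ARF start, 66.8% at the p16INK4A start, 66.4% at CDKN2B and 50% at MTAP, beside a median of 63.2% over all genes. DMRTA1 (61.6%), KLHL9 (62.8%) and HACD4 (59.6%) lay near that median. The interferon genes IFNB1 (32.4%) and IFNE (31.2%) lay far below it, with 0 and 2 CpG dinucleotides against 11 to 27 in the other genes. The 6 genes with a listed start window were those of the higher GC share.

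Both PEO lines had no signal along one uninterrupted stretch of listed windows. Of the 37 windows, 27 held 3 reads or fewer in every PEO1 and PEO4 library, and these 27 were consecutive. The other 10, all on the side of MLLT3 and FOCAD, had signal in both lines. The next listed window beyond 23500000, at chr9:23821200-23822200 over a start of ELAVL2, an RNA-binding protein of neurons, also had none, which made a run of 28 windows. The listed windows without signal thus ran from 21031200 to 23822200, or 2.79 Mb. Between the window ending at 22447900 and that of ELAVL2, 1373.3 kb held no listed window. The ELAVL2 window had 0.671 FPKM in A2780, 0.814 in CP70, 2.55 in PEA1 and 1.19 in PEA2 (line means).

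The edges could be placed only as closely as listed windows allow. On the left, the last window with signal was chr9:20731500-20732500, in an intron of FOCAD. It held 16, 29 and 12 reads in the PEO1 libraries and 4, 15 and 8 in the PEO4 libraries. The first window without signal, chr9:21031200-21032200, covers the start of HACD4, an enzyme of very-long-chain fatty acid synthesis, and the unresolved interval between them was 298.7 kb. On the right, chr9:23850000-23851000 held 48, 41 and 38 reads in PEO1 and 27, 34 and 24 in PEO4, at 27.8 kb from the last window without signal. The longest stretch these limits allow is 3.12 Mb. The edges fell between the same windows in both lines, although breakpoints inside the unresolved intervals were not measured.

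**Figure D1:**
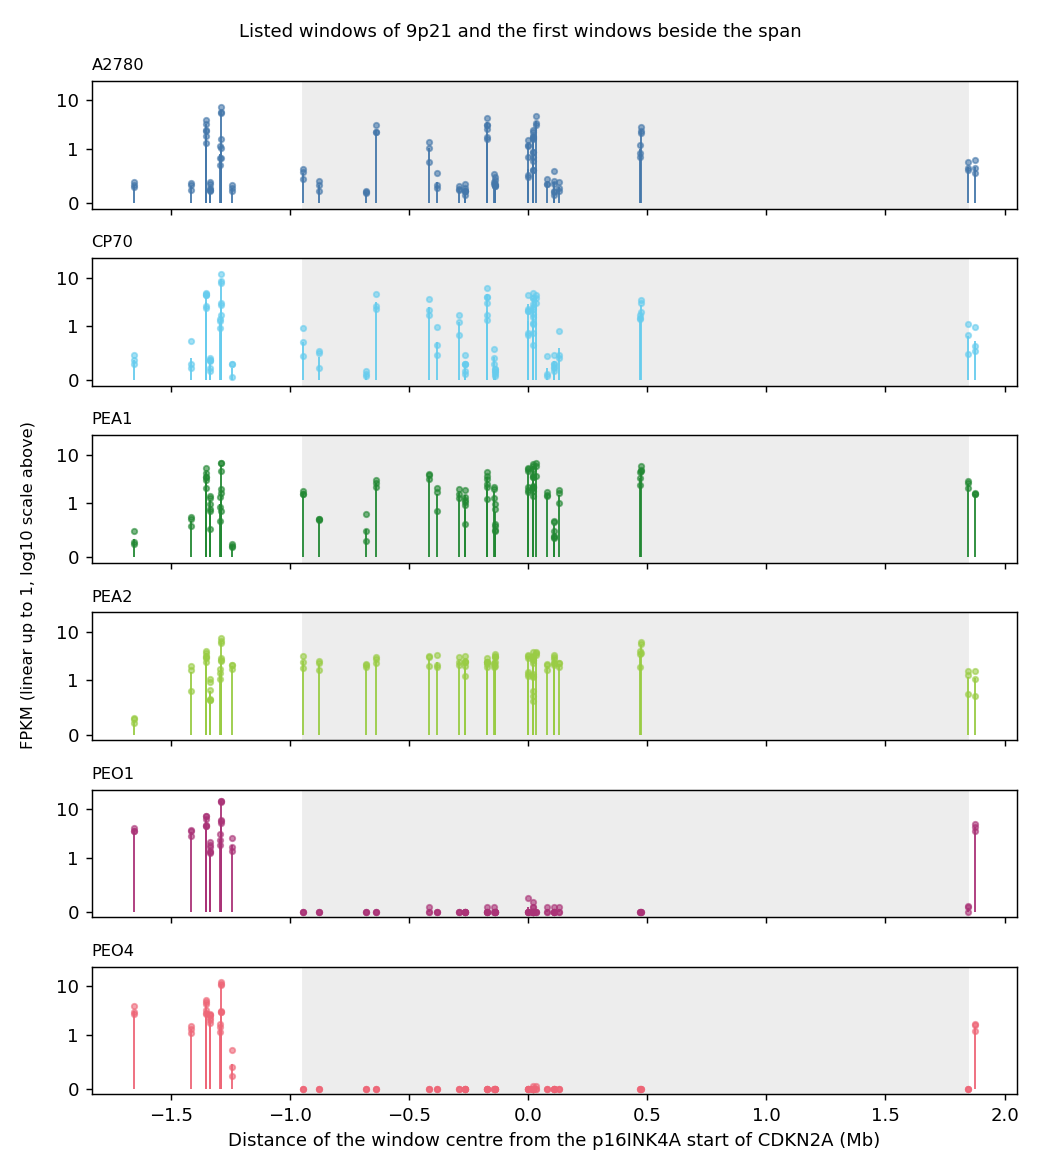
FPKM of each library (points) and line mean (vertical lines) in the 37 windows and the 2 windows beyond them, against distance from the p16INK4A start in Mb, with the FPKM axis linear up to 1 and log10 above. The shaded stretch runs from HACD4 to ELAVL2; its points sit at or near 0 in PEO1 and PEO4 and above 0 in A2780, CP70, PEA1 and PEA2.

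The few reads inside the stretch were unevenly spread over libraries. Summed over the 27 windows, PEO1 held 0, 13 and 0 reads in replicates 1, 2 and 3, and PEO4 held 1, 1 and 0. All 13 reads of PEO1 were thus in replicate 2, spread over 10 windows with at most 3 in any of them, at the p16INK4A start. The same sum was 1481, 1484 and 1577 reads in A2780, 686, 578 and 744 in CP70, 2074, 2208 and 1049 in PEA1, and 1390, 1025 and 1544 in PEA2. A count of 0 allows up to 3 reads, which equals 0.262 to 0.334 FPKM per window in the PEO1 libraries and 0.144 to 0.174 FPKM in the PEO4 libraries (counting error only). Line means at the start windows in the other 4 lines ran from 0.551 to 5.80 FPKM, all above those limits. At the 19 other windows the lowest line mean was 0.121 FPKM (CP70), under the limits of both PEO lines. Several other means of A2780 and CP70 lay under the PEO1 limits, such as 0.203 FPKM in A2780 at chr9:21294000-21295000. Levels as low as these would not have been detectable in a single PEO1 window, nor the lowest in a single PEO4 window.

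The 10 windows beside the stretch had signal in all lines, and the order of the lines there depended on the scaling. Their summed level as deposited was 45.6 ± 1.35 FPKM in PEO1 and 32.6 ± 2.49 FPKM in PEO4 (SD, n = 3), and 14.9 to 22.5 FPKM as the line mean in the other lines. As a share of the reads in listed windows, a scaling added after the data were seen, the order turned: 0.0114% ± 0.000329 in PEO1 and 0.00948% ± 0.000643 in PEO4, against 0.0119% to 0.0171% as the line mean in the others, of which PEA2, the lowest, lay within its spread of PEO1. Over the 27 windows the sum was 0.378 ± 0.655 FPKM in PEO1 and 0.0354 ± 0.0311 FPKM in PEO4. It was 28.4 ± 4.33 FPKM in A2780, 39.2 ± 11.2 in CP70, 61.8 ± 10.1 in PEA1 and 68.1 ± 8.58 in PEA2. The order of PEA1 and PEA2, and of A2780 and CP70, was within the spread of their libraries. Levels between lines move with the share of reads inside listed windows, which was highest in the PEO lines. ATAC-seq reads alone do not separate missing DNA from DNA closed to the transposase, so these cannot be told apart here.

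Long runs without signal were rare in the table. Over all 89428 windows, 2.46% in PEO1 and 0.478% in PEO4 held 3 reads or fewer in each library of the line. The run at 9p21 was the longest in both lines, and the next longest had 12 windows in PEO1 (chromosome 2) and 4 windows in PEO4. The longest run was 2 windows in A2780, 7 in CP70 and 3 in PEA1. PEA2 also had 1 long run, of 27 windows over 1.05 Mb on chromosome 4, and none of the 37 windows at 9p21 was without signal in it. CP70 had 2.33% of windows at 3 reads or fewer and no run of 10 or more windows, while its totals were 13186754 to 23854111 reads.

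**Figure D2:**
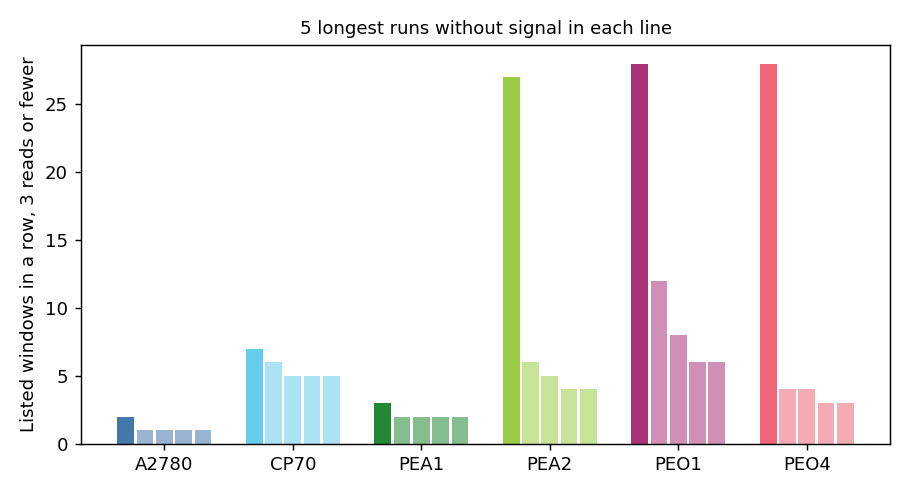
The 5 longest runs of consecutive listed windows with 3 reads or fewer in each library of a line, as windows per run, with the longest in full colour. The run of 28 windows in PEO1 and in PEO4 is the 9p21 stretch; the run of 27 windows in PEA2 lies on chromosome 4.

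Listed windows sample the stretch thinly. They are 0.903% of the 3101 windows of the counting grid between its ends, and the widest gap between 2 listed windows was 1373.3 kb, from 22447900 to 23821200. The stretch held 21 protein-coding genes whole. Of these, 16 were interferon genes, which encode secreted antiviral signalling proteins and lie without introns in one cluster, and none of the 16 had a listed window in any line. IFNB1 (21077103 to 21077941), the interferon beta gene, lay 18.6 kb from the nearest listed window, and IFNE (21480838 to 21482312), an interferon of reproductive epithelium, lay 77.7 kb from it. Neither gene has values of its own in the table. Outside the 8 genes, listed windows of the stretch overlapped the long non-coding genes MIR31HG (1 window) and CDKN2B-AS1 (9 windows) and the transcript ENSG00000264545 (11 windows), and those on its left overlapped MLLT3 (2 windows) and FOCAD (4 windows).

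The CDK inhibitor genes had signal at their starts in A2780, CP70, PEA1 and PEA2. Levels of single windows are given as deposited, so their order over lines moves with the share of reads inside listed windows. That share was 8.38% to 10.0% in the A2780 libraries and 17.1% to 20.7% in the PEA2 libraries. CDKN2A (21967751 to 21995300) overlapped 5 listed windows, 3 of which hold a coding start. At the p16INK4A start (chr9:21974400-21975400, in the promoter and first exon) the libraries held 65, 68 and 74 reads in A2780, 58, 37 and 48 in CP70, 157, 168 and 96 in PEA1, and 59, 51 and 75 in PEA2. PEO1 held 0, 3 and 0 reads there and PEO4 held 0 in each library. The levels were 1.30 ± 0.209 FPKM in A2780, 2.87 ± 1.32 in CP70, 3.17 ± 0.199 in PEA2 and 4.96 ± 0.322 in PEA1 (SD, n = 3). CP70 and PEA2, neighbours in that order, were within the spread of CP70.

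At the p14ARF start (chr9:21994200-21995200) reads were 108, 108 and 101 in A2780, 63, 62 and 68 in CP70, 186, 206 and 105 in PEA1, and 71, 54 and 70 in PEA2. PEO1 held 0, 1 and 0 reads and PEO4 none. The levels were 2.00 ± 0.394 FPKM in A2780, 3.38 ± 0.455 in PEA2, 3.78 ± 0.964 in CP70 and 5.80 ± 0.705 in PEA1, where PEA2 and CP70 lay within their spread. The window next to it (chr9:21995100-21996100), which holds a start farther upstream and shares 101 bp with the former, ranged from 1.87 ± 0.336 FPKM in A2780 to 3.66 ± 0.207 in PEA1. CDKN2B-AS1 runs in the opposite direction across both windows, so reads there cannot be given to one gene or the other.

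At CDKN2B (22002902 to 22009304), whose single listed window (chr9:22008600-22009600) holds its start, reads were 194, 212 and 192 in A2780, 58, 64 and 73 in CP70, 182, 221 and 76 in PEA1, and 70, 59 and 81 in PEA2. PEO1 held 0 reads in each library and PEO4 held 1, 0 and 0. The level was 5.45 ± 1.65 FPKM in PEA1 and between 3.62 and 3.78 FPKM in the other 3 lines, which did not differ beyond their spread as deposited.

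MTAP (21802635 to 21937650) overlapped 4 listed windows. Its start (chr9:21802500-21803500) held 183, 190 and 192 reads in A2780, 80, 66 and 94 in CP70, 138, 119 and 51 in PEA1, and 44, 41 and 65 in PEA2, against 0, 1 and 0 in PEO1 and 0 in each PEO4 library. The level was 2.56 ± 0.284 FPKM in PEA2, 3.53 ± 1.00 in PEA1, 3.55 ± 0.634 in A2780 and 4.65 ± 1.22 in CP70, and each neighbour in that order lay within the spread of the next. The other 3 windows lie in MTAP introns, about 29.1 to 34.6 kb from the start. A2780 and CP70 held at most 0.436 FPKM on average in any of them.

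The neighbouring genes differed in where they were open. KLHL9, an adaptor that directs a ubiquitin ligase, had between 2.51 and 3.13 FPKM on average at its start (chr9:21334500-21335500) in A2780, CP70, PEA1 and PEA2. As deposited there was no difference beyond the spread. HACD4 was the weakest start in A2780, at 0.551 ± 0.0912 FPKM, and reached 2.48 ± 0.718 FPKM in PEA2. DMRTA1, a DM-domain transcription factor gene, had 1.01 ± 0.203 FPKM in A2780, 1.5 ± 0.149 in CP70, 3.39 ± 1.07 in PEA1 and 3.19 ± 1.14 in PEA2 at its start (chr9:22446000-22447000), and its second window reached 5.25 FPKM in PEA2. All PEO1 and PEO4 libraries held 0 reads at the starts of KLHL9, HACD4 and DMRTA1.

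**Figure D3:**
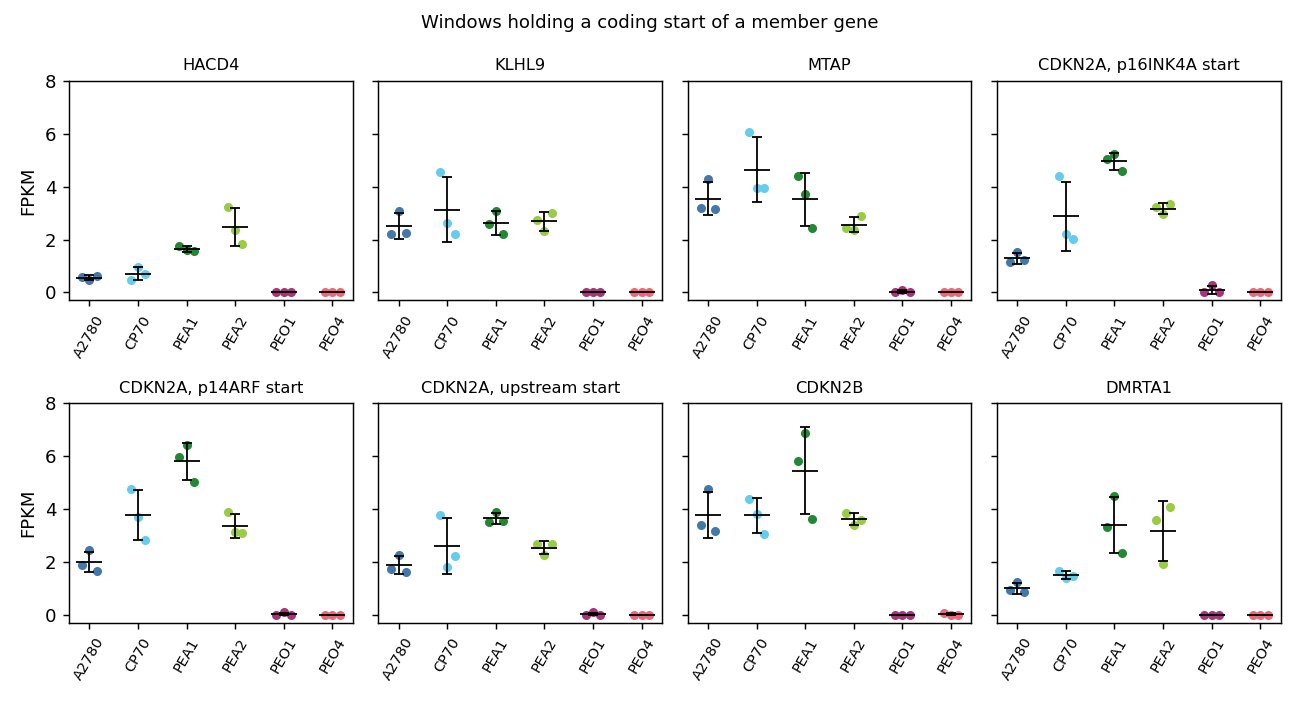
FPKM in the 8 windows that hold a coding start of HACD4, KLHL9, MTAP, CDKN2A (3 starts), CDKN2B and DMRTA1, for each of the 18 libraries (points), with the line mean and SD (bars). PEO1 and PEO4 lie at or near 0 in every panel, and PEA1 has the highest mean at all 3 starts of CDKN2A and at CDKN2B and DMRTA1.

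Whether the resistant line of a pair differed from its sensitive line was asked in the pairs that had signal, which the choice of region did not use. Lines were compared by limma on log2(FPKM + 0.1) over all windows with a mean above 1 FPKM in the pair, with Benjamini-Hochberg adjustment over all of them. A window was called at a log2 fold change over 2 and an adjusted p under 0.001. Nothing says that replicate libraries came from separate cultures, so these p-values measure the spread between libraries. The median log2 fold change over all windows tested was 0.59 for A2780 and CP70, 0.31 for the PEA lines and -0.30 for the PEO lines, and centring each library on its median removes that shift.

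Between CP70 and A2780 no 9p21 window was called, a count near the share over all windows. Of the 17 windows tested, 0 were called by limma, edgeR or DESeq2, where limma called 0.797% of all windows tested. An unadjusted p under 0.05 was found in 7 of the 17, with no such share over all windows beside it. Within the stretch 12 windows were tested, with a median log2 fold change of 0.38 against 0.59 over all windows. At adjusted p under 0.05, 4 were higher in CP70 and 0 lower, where 47.5% of all windows were higher and 2.29% lower. Those 4 were the starts of p16INK4A (log2 fold change 1.01 ± 0.255 SE, adjusted p = 0.000683 by limma) and p14ARF (0.87 ± 0.273, adjusted p = 0.00613), the window 1.2 kb upstream of the CDKN2A starts (0.75) and the MIR31HG window (1.10). At both CDKN2A starts every CP70 library lay above every A2780 library. With median centring 0 of the 12 were higher and 2 lower, with no centred share over all windows beside them. The centred p16INK4A value was 0.44 (adjusted p = 0.161), and CDKN2B, at 0.0015 ± 0.290 as deposited, was at -0.58 (adjusted p = 0.0204).

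In the PEA pair the CDK inhibitor starts were lower in the resistant line. The 3 CDKN2A starts fell by 0.63 ± 0.227 (p16INK4A), 0.76 ± 0.228 (p14ARF) and 0.51 ± 0.228 (upstream start) on the log2 scale in PEA2 against PEA1 (adjusted p = 0.0105, 0.00164 and 0.0392 by limma). CDKN2B fell by 0.53 ± 0.228 (adjusted p = 0.0312). At the 3 CDKN2A starts every PEA1 library lay above every PEA2 library; at CDKN2B, PEA1 replicate 3 (3.64 FPKM) lay below PEA2 replicate 1 (3.85 FPKM). Without centring, 35.2% of all windows that hold a coding start were lower in PEA2 and 18.8% higher, with a median of -0.21. Median centring gave values from -0.88 to -1.14 at the 3 CDKN2A starts and -0.90 at CDKN2B, all past an adjusted p of 0.05. Centring lowers every coding start of this pair alike, so the larger decreases say nothing more about these genes. Without PEA1 replicate 1 the p16INK4A start had an adjusted p of 0.0502 at a log2 fold change of -0.62, and CDKN2B an adjusted p of 0.153. Leaving out each of the 6 libraries in turn, the upstream start stayed under an adjusted p of 0.05 only without PEA1 replicate 3, and CDKN2B only without PEA1 replicate 3 or PEA2 replicate 1.

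HACD4 was higher in PEA2 by 0.53 ± 0.236 (adjusted p = 0.0406 by limma), a call that median centring ended (0.16, adjusted p = 0.481). The HACD4 window was above 2 FPKM in at least 2 libraries of PEA2 and of no other line. Its rise was thus favoured by the choice of windows, and the p-value supports nothing. KLHL9 (0.04 ± 0.230), MTAP (-0.41 ± 0.229, adjusted p = 0.102) and DMRTA1 (-0.11 ± 0.228) did not pass. With median centring, which lowers every window of this pair alike, MTAP was at -0.78 (adjusted p = 0.000152 by limma) and DMRTA1 at -0.48 (adjusted p = 0.0277).

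Windows away from coding starts were mostly in the table because of PEA2. Of the 19, 13 were above 2 FPKM in at least 2 libraries of PEA2 and of no other line. So was 1 of the 8 start windows, that of HACD4. Their higher level in PEA2 was thus favoured by the choice of windows and supports nothing. Of the 19, 2 were above 2 FPKM in at least 2 libraries of PEA1 and of no other line (chr9:21993300-21994300 and chr9:21996000-21997000). Both were lower in PEA2, which the choice of windows favoured in the same way, so that supports nothing either. All 27 windows of the stretch were tested: 12 were higher in PEA2, 6 lower and 9 neither, where 43% of all windows were higher and 21.4% lower. Centring gave 8 higher and 11 lower, with no centred share over all windows beside them. The 8 start windows had a median log2 fold change of -0.46 (1 higher, 4 lower). Over all windows that hold a coding start the median was -0.21, with 18.8% higher and 35.2% lower. The 19 others had a median of 0.61 (11 higher, 2 lower). Over all such windows the median was 0.56, with 51.3% higher and 16.7% lower. The difference between both classes was thus present over the whole table.

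Of 35 windows tested in the PEA pair 3 were called, all higher in PEA2, where 12.7% of all windows were called. All 3 were above 2 FPKM in at least 2 libraries of PEA2 and of no other line, so they entered the table through the line in which they are higher, and their p-values are too small for that reason. One, in an MTAP intron (chr9:21836700-21837700), had 18, 16 and 10 reads in PEA1 and 57, 35 and 67 in PEA2, and rose by a log2 fold change of 2.16 ± 0.264 (adjusted p = 2.42e-15 by limma). The second, inside CDKN2B-AS1 (chr9:22085100-22086100), 76.3 kb from the CDKN2B start, had 11, 13 and 8 reads against 62, 53 and 63, a log2 fold change of 2.73 ± 0.269. The third was the FOCAD intron window on the left edge, with 8, 7 and 4 reads against 38, 30 and 48 (2.69 ± 0.326). In all 3 every PEA2 library lay above every PEA1 library. The count was 0 with a pseudocount of 1 and 0 at a minimum mean of 2 FPKM.

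**Figure D4:**
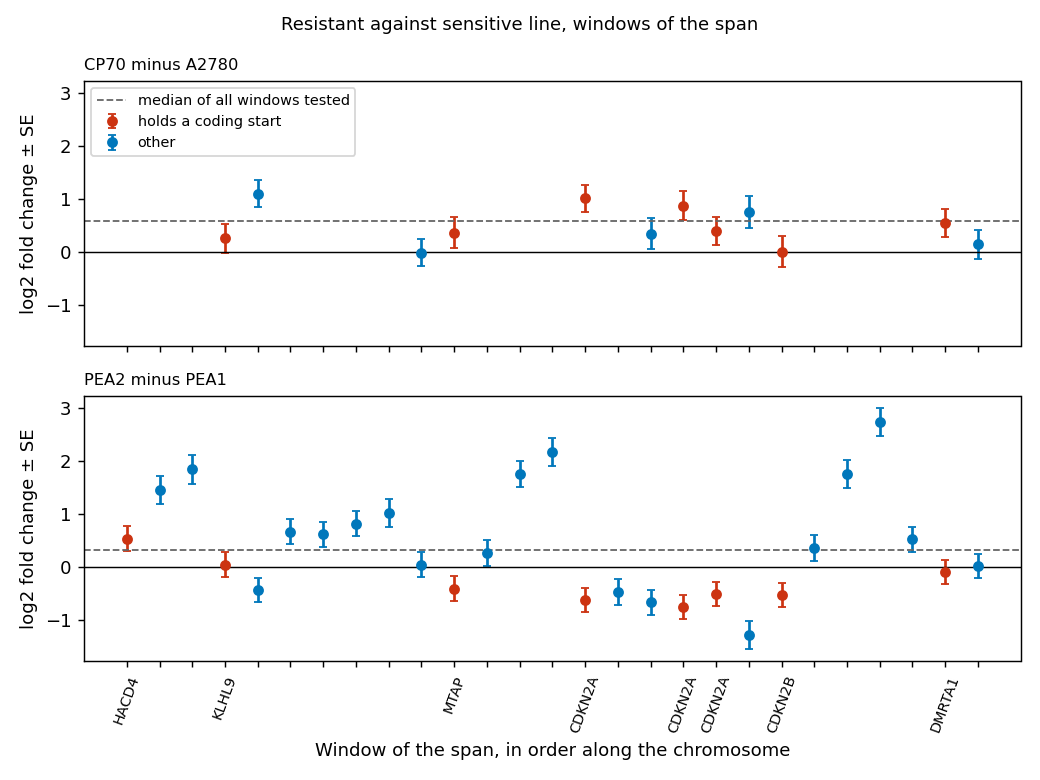
Log2 fold change ± SE (limma, log2(FPKM + 0.1)) of each tested window of the stretch in the A2780 pair (upper, 12 windows) and the PEA pair (lower, 27 windows), in order along the chromosome, with the median of all windows tested as a dashed line. In the PEA pair the windows that hold a start of MTAP, CDKN2A, CDKN2B or DMRTA1 lie below 0 as deposited, and most other windows, 13 of 19 of which entered the table through PEA2 alone, lie above 0.

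The 2 pairs differed from each other at CDKN2A. The difference of log2 fold changes, PEA pair minus A2780 pair, was -1.64 ± 0.342 at the p16INK4A start and -1.64 ± 0.343 at the p14ARF start (adjusted p = 2.14e-05 and 2.35e-05 by limma over 12 libraries). It was -0.91 ± 0.340 at the upstream start (adjusted p = 0.0172), -0.78 ± 0.346 at MTAP (adjusted p = 0.0471) and -0.53 ± 0.352 at CDKN2B, which did not pass. Over all windows that hold a coding start, the median log2 fold change was -0.21 in the PEA pair and 0.59 in the A2780 pair. Coding starts over the whole table thus moved in the same direction between the pairs, and the 9p21 values were not tested against that shift. With median centring the MTAP value was -0.55 (adjusted p = 0.0697), and the upstream start had an adjusted p of 0.0536 without A2780 replicate 3 and 0.0844 without CP70 replicate 1. Of 22 windows of the stretch tested, 3 had a larger change in the PEA pair and 9 a smaller one at adjusted p under 0.05, where 22.7% and 32.9% of all windows did. The 3 were above 2 FPKM in at least 2 libraries of PEA2 and of no other line, and 2 of the 9 were so in PEA1 alone. Their direction was thus favoured by the choice of windows. At a difference over 2 and an adjusted p under 0.001, 3 of 27 windows tested were called, where 12.8% of all windows were. Each of these called windows entered the table through PEA2 alone or PEA1 alone, the line in which it was higher.

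In the PEO pair no window of the stretch reached the mean of 1 FPKM, so none was tested. Of the 10 windows beside it 0 were called by limma, edgeR or DESeq2, where limma called 8.49% of all windows. An unadjusted p under 0.05 was found in 9 of the 10, with no such share over all windows beside it. At adjusted p under 0.05, 7 were lower in PEO4 and 1 higher, where 45.8% of all windows were lower and 21.9% higher. The FOCAD start (chr9:20683800-20684800), which had 14.3 ± 0.356 FPKM in PEO1 and 11.1 ± 0.808 in PEO4, fell by 0.37 ± 0.109 (adjusted p = 0.00333). The MLLT3 start (chr9:20621700-20622700), of a subunit of the super elongation complex, fell by 0.51 ± 0.141 (adjusted p = 0.00169). The edge window in FOCAD fell by 1.86 on the log2 scale. One of the 10 windows was called, as lower, without PEO1 replicate 3 and without PEO4 replicate 2.

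Genes that act with these proteins lie elsewhere in the genome. A window is listed once for the whole table, so a listed start can be low in some lines (IRF7 had 0.295 FPKM in PEA1). The lists used were of the CDK4/6-RB pathway, the p14ARF-MDM2-p53 pathway, methionine salvage with PRMT5, and type I interferon receptors and signalling, 50 genes in all. Every one of the 50 had a listed start window, beside 6 of the 8 genes at 9p21. The counts take adjusted p under 0.05 over all windows, with the shares of all windows given above. Median centring shifts every window of a pair alike. Shares over all windows are given without centring only, so centred counts have no share beside them.

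In the PEO pair, where the 9p21 genes had no signal, 23 of 49 list promoters were higher in PEO4 and 6 lower. Beside them, 26.1% of all windows that hold a coding start were higher and 31.7% lower. Median centring gave 37 higher and 3 lower, with no centred share beside them, so these counts say nothing about the lists. The CDK4/6-RB list had 10 higher and 1 lower of 17 tested. The change of largest size was at CDKN1A, which encodes the CDK inhibitor p21 and belongs to the p53 list as well, from 2.43 ± 0.302 FPKM in PEO1 to 7.36 ± 0.869 in PEO4 (log2 fold change 1.56 ± 0.160, adjusted p = 1.02e-10 by limma). The member that fell was CDKN2C, the gene of the related inhibitor p18INK4C (-0.49). RB1 (-0.11, adjusted p = 0.534) and CDK4 (0.21, adjusted p = 0.118) did not pass.

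The interferon list had 6 higher and 1 lower of 12. IFNAR1, a chain of the receptor for the interferons of the cluster, rose from 5.93 ± 0.645 to 13.4 ± 2.24 FPKM (log2 fold change 1.16 ± 0.130, adjusted p = 7.16e-10). The methionine salvage and PRMT5 list had 5 higher and 3 lower of 13. RIOK1, a partner of the methyltransferase PRMT5, rose by 0.91 ± 0.124, and PRMT5 itself did not pass (0.06, adjusted p = 0.638). The p53 list had 3 higher and 1 lower of 8, and the member that fell was MDM4 (-0.89).

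In the PEA pair 5 of 49 list promoters were higher in PEA2 and 22 lower, beside 18.8% and 35.2% of all windows with a coding start. The p53 list had 0 higher and 7 lower of 8, the CDK4/6-RB list 2 higher and 7 lower of 18, the interferon list 2 higher and 6 lower of 12, and the methionine salvage and PRMT5 list 1 higher and 3 lower of 12. CDK4, the kinase that p16INK4A inhibits, fell from 4.31 ± 0.871 to 1.33 ± 0.454 FPKM (-1.66 ± 0.232, adjusted p = 5.32e-12 by limma). WDR77, the PRMT5 cofactor, fell by 1.30 ± 0.227. IRF7, a transcription factor that drives interferon genes, rose by 2.38 ± 0.317 from 0.295 to 1.91 FPKM and was called. Median centring gave 4 higher and 39 lower, again with no centred share beside them.

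In the A2780 pair 23 of 47 list promoters were higher in CP70 and 0 lower, beside 46.1% and 1.5% of all windows with a coding start. The p53-regulated stress gene SESN1 (1.49 ± 0.305), AMD1 of polyamine synthesis (1.45 ± 0.255) and the cell cycle transcription factor E2F1 (0.97 ± 0.286) had the largest changes. The windows of SESN1 and AMD1 both lie on chromosome 6, starting at 109415700 and 111195900. Whether their region rose as a whole was not tested here. With median centring 2 list promoters were higher and 2 lower, with no centred share beside them.

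Promoters with the pattern most like CDKN2A were looked for over the 18 libraries. Likeness was the Pearson correlation of log2(FPKM + 0.1) with the p14ARF start window over the start windows of other genes, given without a test since the libraries share their lines. In that window the 6 PEO libraries lie at or near 0, and the region was chosen by those values. A high r was thus favoured by low PEO values and is a description only. The 5 highest were NF2 (r = 0.984), SYT14 (0.980), NKD2 (0.959), GSTT1 (0.956) and ELAVL2 (0.954). NF2, a tumour suppressor on chromosome 22, held 0, 2 and 0 reads in PEO1 and 0 in each PEO4 library, while A2780 held 210, 156 and 172. GSTT1, a glutathione transferase gene also on chromosome 22, held 0 reads in all 6 PEO libraries. SYT14 and NKD2 held reads in every PEO library, 2 to 5 and 5 to 17 respectively. ELAVL2 is the gene at the right end of the 9p21 stretch.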

How the data were processed

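ATAC-seq was measured in 6 established cell lines with 3 libraries each. Before deposit, the authors marked duplicates (Picard), mapped read pairs uniquely to build hg19 (Bowtie2) and discarded mitochondrial and blacklisted alignments. Reads per overlapping window came from featureCounts, and the authors deposited them as FPKM from edgeR. Versions and any shift of read ends for Tn5 are not given in the sources used here. Unique alignment lowers signal in near-identical sequence such as the interferon genes.

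All windows span 1001 bp, so the deposited FPKM equals RPM divided by a constant, and whole reads were recovered (100% of values within 0.01 of a whole number). Library totals of 8963079 to 60435027 reads limit the precision of low windows. Limits drawn from reads cover counting error, because no molecular identifiers separate PCR copies from molecules. Table steps matched GRCh37 at 23 of 23 chromosome ends.

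Groups and replicate numbers came from the labels. Windows without signal held 3 reads or fewer in each library of a line. Pairs were compared with limma 3.58.1 in R 4.3.3 (lmFit, eBayes with trend, in place of the study's voom weights) on log2(FPKM + 0.1), which understates changes of low windows, for windows with a mean above 1 FPKM. The fit was tested on simulated data. Alternatives were pseudocounts of 1 and 0.02, other filters and thresholds, median centring, edgeR 4.0.16, DESeq2 1.42.0, a replicate block and leaving out each library. No replicate libraries were identical.

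The 8 genes, the gene lists and the windows were chosen with earlier results of these data known. Named were the start windows of the 8 genes, the windows at the edges, called windows, other genes with listed windows, the 3 list promoters of largest change in each pair, and the 5 promoters most like CDKN2A. The values of RB1, CDK4, PRMT5, CDKN2C and MDM4 in the PEO pair and of the MIR31HG window were added after they were seen.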

Additional observations from a re-analysis of the deposited data

Results flagged for a closer look

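The windows below had log2 fold changes that differed between the PEA pair and the A2780 pair by limma's test of the difference over 12 libraries. The value is the PEA pair minus the A2780 pair. Over all windows that hold a coding start, the median log2 fold change was -0.21 in the PEA pair and 0.59 in the A2780 pair.

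At the CDKN2A starts the difference was -1.641 (p16INK4A, chr9:21974400-21975400), -1.639 (p14ARF, chr9:21994200-21995200) and -0.912 (upstream start, chr9:21995100-21996100). At the MTAP start (chr9:21802500-21803500) it was -0.7777, and leaving out 1 library gave -1.01 to -0.58, past an adjusted p of 0.05 in 4 of 12 fits. At chr9:21996000-21997000, a window of CDKN2B-AS1 upstream of the CDKN2A starts, it was -2.035. Reads there were 49, 27 and 37 in A2780, 32, 11 and 26 in CP70, 65, 71 and 30 in PEA1, and 13, 14 and 14 in PEA2. In an MTAP intron (chr9:21835800-21836800) it was 2.812, with 18, 16 and 29 reads in A2780, 1, 2 and 5 in CP70, 31, 29 and 13 in PEA1, and 65, 42 and 70 in PEA2. In CDKN2B-AS1 (chr9:22085100-22086100) it was 2.772.

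The last 2 windows passed 2 FPKM in 2 libraries of PEA2 and of no other line. The window at chr9:21996000-21997000 did so in PEA1 and in no other line. The direction of these differences was thus favoured by the choice of windows. No explanation was tested for these differences.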

How the results depend on the processing

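The calls at 9p21 rested on the settings. In the A2780 pair 3 windows were called at thresholds of 1 and 0.05 instead of 0. In the PEA pair 0 were called with a pseudocount of 1, 0 at a minimum mean of 2 FPKM and 9 at thresholds of 1 and 0.05, and 2 to 4 with a library left out. In the PEO pair 1 was called with a pseudocount of 0.02 and 2 at thresholds of 1 and 0.05, and 0 to 1 with a library left out. List promoters past an adjusted p of 0.05 in the A2780 pair numbered 23, all higher in CP70. They numbered 13 with no filter and 15 with the replicate block, again all higher. With median centring and with DESeq2 they numbered 4 each (2 higher, 2 lower), and with edgeR 6 (2 higher, 4 lower). With a library left out they numbered 6 to 23 (9 without A2780 replicate 1, 6 without A2780 replicate 3). In the PEA pair they numbered 43 with median centring and 43 with edgeR, against 27. The run of 28 windows was 5 windows in PEO1 when 0 reads were required, since PEO1 replicate 2 held reads in 11 of the 28 and replicate 3 in 1. Summed FPKM of the stretch, scaled to the reads in listed windows, was 66.9 in A2780, 64.6 in CP70, 88.2 in PEA1 and 78.3 in PEA2, and from every other window it was 33.0 in A2780.

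Start windows changed sign under median centring, edgeR and DESeq2, in that order, in the A2780 pair at KLHL9 (-0.32, -0.37, -0.34), MTAP (-0.21, -0.26, -0.24), the upstream CDKN2A start (-0.18, -0.19, -0.17), CDKN2B (-0.58, -0.64, -0.62) and DMRTA1 (-0.033, -0.034, -0.016), and in the PEA pair at KLHL9 (-0.33, -0.30, -0.29). With a library left out, KLHL9 ranged from -0.035 to 0.47 in the A2780 pair and from -0.077 to 0.16 in the PEA pair, CDKN2B from -0.12 to 0.18 in the A2780 pair, and DMRTA1 from -0.34 to 0.21 in the PEA pair. None of these had passed the test as deposited. The causes were not tested.

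Same-numbered replicates did not deviate together: the correlations of their deviations were -0.41 to -0.04 in the A2780 pair, -0.12 to -0.0049 in the PEA pair and 0.016 to 0.045 in the PEO pair, so the numbers were not used to pair samples. With the replicate block the 9p21 calls numbered 0 for A2780 and CP70, 3 for the PEA lines and 0 for the PEO lines, and in the PEA pair HACD4, the upstream CDKN2A start and CDKN2B had adjusted p of 0.0589, 0.0654 and 0.0644. Of 299 alternatives for single windows within a pair, 230 kept direction and side of the threshold. Depth limits single windows of the stretch: 3 reads equal 0.262 to 0.334 FPKM in a PEO1 library, so weaker signal in 1 window could go unseen. For the sum over the 27 windows, the upper ends of the 95% counting interval were 0.373, 1.94 and 0.411 FPKM in PEO1 replicates 1, 2 and 3.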
